A study of Mus musculus with 9 samples.

Results

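The genes described here are the kallikrein-related peptidases (Klk), clade B serpins (Serpinb), stefins of the Stfa group (Stfa), Kazal-type inhibitors (Spink) and WAP-domain proteins (Wfdc) of mouse keratinocytes. They were taken by symbol, as every gene of the epidermal expression table whose name starts with 1 of these 5 stems followed by a digit. This rule was set with earlier results of these data known. The rule took 86 of 36442 genes, made up of 27 Klk, 27 Serpinb, 4 Stfa, 12 Spink and 16 Wfdc genes. The data came from the epidermal arm of a mouse RNA-seq study of how keratinocytes act on regulatory T cells, in which keratinocytes of adult skin were sorted by flow cytometry. The WT epidermis group had 2 libraries and the Mi2 epidermis group had 2 libraries, whose column names mark them as knock-outs. Chd4 encodes Mi-2β, an ATPase that remodels chromatin. The labels give no strain, age, sex, allele or Cre driver for either group, and they do not say whether replicates came from different mice, so every p-value below measures only the spread between these libraries. The 5 regulatory T cell libraries of the study were not used here.

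Kallikreins are secreted serine proteases that are made as inactive precursors and activate one another in the upper epidermis, where they cut the adhesion proteins that hold corneocytes together. Spink5, also called LEKTI, blocks several of them, clade B serpins are mostly intracellular suicide inhibitors of serine or cysteine proteases, and stefins are small cytosolic inhibitors of lysosomal cysteine cathepsins. The balance of these proteases and inhibitors is known to set shedding and barrier function of the skin.

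The epidermal libraries held between 5682391 and 8913804 reads over genes. The targeted gene Chd4 had 1607 and 1942 normalized reads in the WT libraries and 734 and 1207 in Mi2, so the groups did not overlap. Its fitted log2 change was -0.91 (SE 0.27, adjusted p = 0.046 with limma), and the call was lost under 6 of the 15 other settings, with an adjusted p of up to 0.23. All 10 keratinocyte markers passed the filter, and their summed level was 334453 to 359547 in WT and 299441 to 352293 in Mi2. Krt15 and Krt1 were the only 2 of them called, both lower. Markers of Langerhans and dendritic cells summed to 621 and 645 in WT and to 1593 and 1959 in Mi2, with none at 0 in all libraries and 2 of 4 tested called higher. Those were Epcam, with 299 and 340 in WT and 1095 and 1053 in Mi2, and Cd74, while H2-Aa and H2-Ab1 were not called and Cd207 had 14.9 and 1.45 in WT and 3.98 and 15.0 in Mi2. Sebocyte markers summed to 3050 and 3972 in WT and to 6467 and 7071 in Mi2, with 2 of 4 tested called higher. Erythroid markers summed to 858 and 2754 in WT and to 211 and 376 in Mi2, with 4 of 5 called lower. The sums for T lymphocytes, fibroblasts and melanocytes lay between 8.17 and 178 in every library, and those of mast and endothelial cells were at most 9.29. Mitochondrial genes took 13.8% and 12.9% of WT reads, 29.7% in Mi2 replicate 1 and 15.5% in Mi2 replicate 2. Summed over all genes, normalized reads were 6948714 and 6470929 in WT and 10167191 and 7740898 in Mi2, a ratio of 1.33. The part of these differences in the results below was not tested, and in bulk samples fewer cells of a type and less RNA per cell cannot be told apart.

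Of the 86 genes, 46 had no read in any library and 18 had reads but a mean under 10 normalized reads over the 4 libraries, the lowest mean that was tested. The remaining 22 were tested with limma on log2(normalized reads + 1), together with all 14461 genes that passed, and calls were made at an adjusted p under 0.05 (Benjamini-Hochberg). Mi2 keratinocytes had higher levels of 13 of the 22 and a lower level of 1, Serpinb7, while 8 were not called. Over all genes tested, 15.1% were called higher, 13.1% lower and 28.2% in either direction. Higher genes made up 53.5% of all calls, and 36.2% when libraries were scaled without mitochondrial genes, which moved the median of all genes by -0.23 on the log2 scale. Of the 22, however, 7 had a WT mean under 10 and passed only through their Mi2 level, so their Mi2 mean had to be the higher. Of the 15 genes with a WT mean of at least 10, 6 were called higher, 1 lower and 8 were not called. The shares over all genes with such a WT mean were 12.5% higher, 13.8% lower and 26.3% in either direction. The WT and Mi2 libraries did not overlap for 11 of these 15 genes, or 73.3%, against 69.6% of all such genes. The median fitted log2 change of the 15 genes was 0.49, against -0.08 over all such genes.

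**Figure D1:**
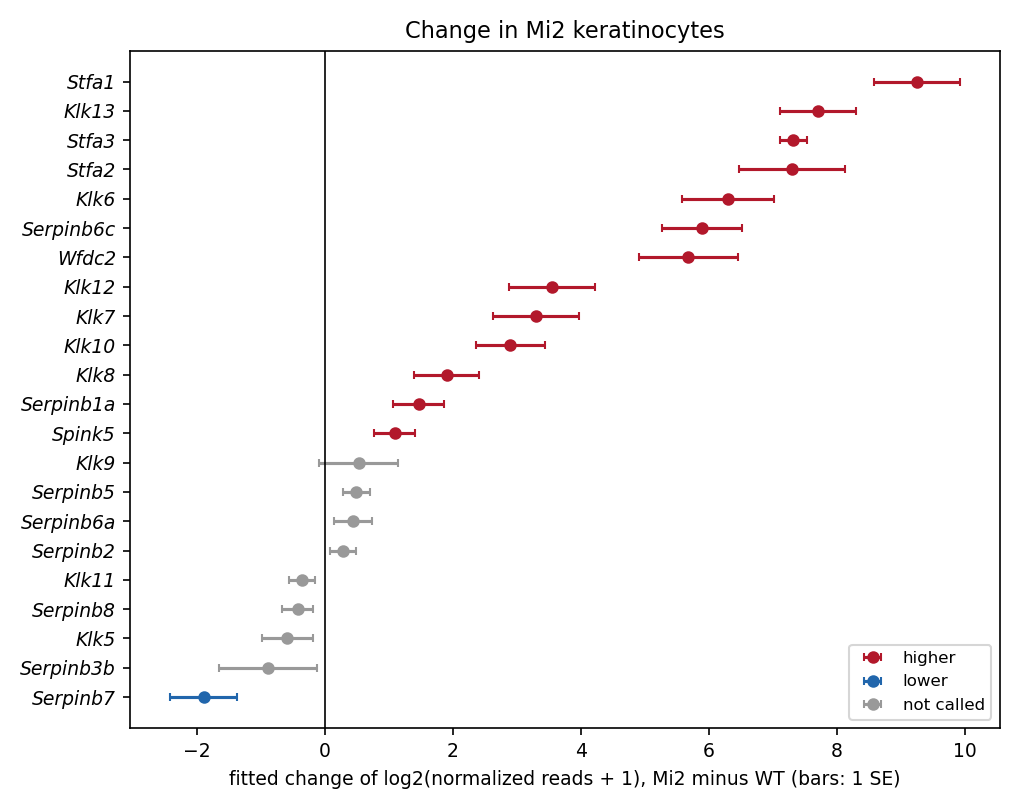
Fitted change in log2(normalized reads + 1) between Mi2 and WT keratinocytes for the 22 genes tested, with bars of 1 SE, in red for the 13 called higher, blue for the 1 called lower and grey for the 8 not called. The values run from 9.26 for Stfa1 down to -1.90 for Serpinb7.

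**Figure D2:**
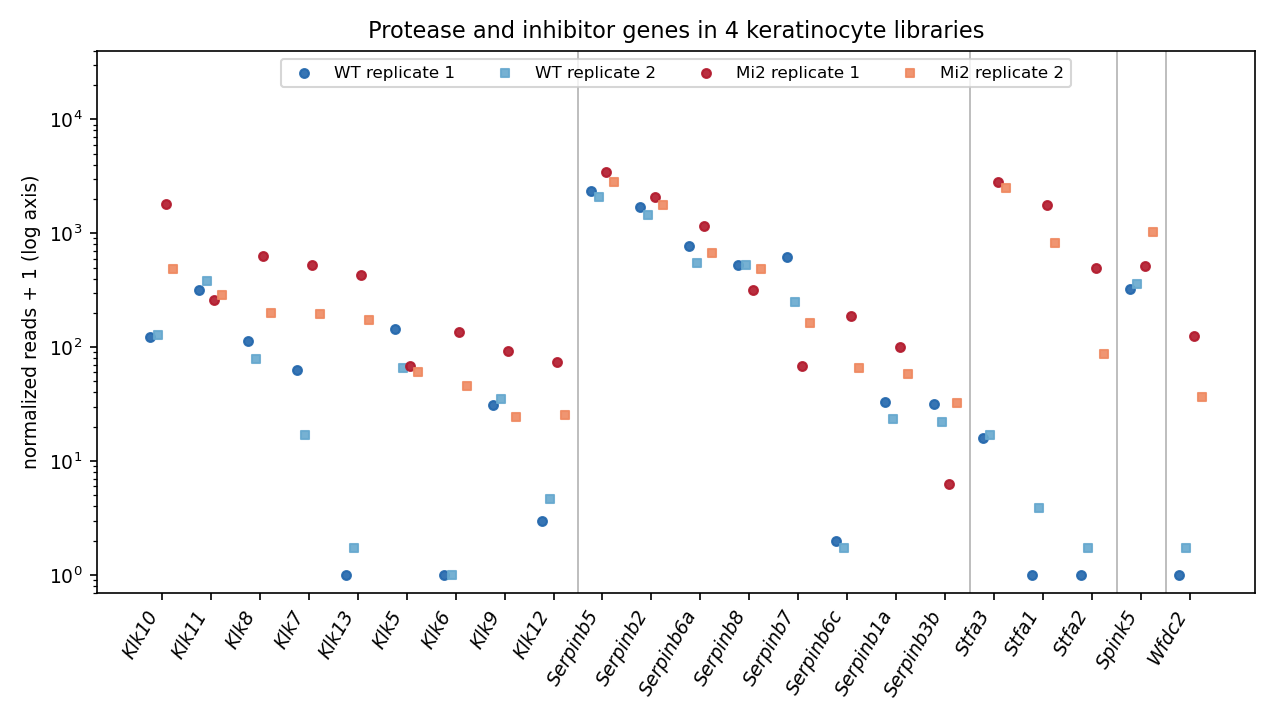
Normalized reads + 1 on a log axis in the 2 WT (blue) and 2 Mi2 (red and orange) libraries for the 22 genes tested, grouped by family and ordered by mean level within each. Klk6, Klk13, Serpinb6c, Stfa1, Stfa2 and Wfdc2 sit at the foot of the axis in WT, where 1 stands for 0 reads, and far above it in Mi2.

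Among the kallikreins, 6 of 9 tested genes rose in Mi2 keratinocytes (Klk6, Klk7, Klk8, Klk10, Klk12 and Klk13), and Klk5, Klk9 and Klk11 were not called. Of the 6 kallikreins with a WT mean of at least 10, 3 were called higher (Klk7, Klk8 and Klk10), against 12.5% of all genes with such a WT mean, and the other 3 that rose passed only through their Mi2 level. Klk7 is the chymotrypsin-like stratum corneum protease, and Klk5 the trypsin-like protease known to activate it. Klk7 had 61.5 and 16.0 normalized reads in the WT libraries and 523 and 196 in Mi2. Both Mi2 libraries lay above both WT libraries, which themselves differed 3.85-fold. The ratio of means was 9.28 and the fitted log2 change 3.30 (SE 0.67, adjusted p = 0.014 with limma). The call ended without WT replicate 2, at 2.36 (adjusted p = 0.052 with limma), and without Mi2 replicate 1, at 2.60 (adjusted p = 0.12). Klk5 had 143 and 64.6 normalized reads in the WT libraries and 67.7 and 59.9 in Mi2. These groups overlapped, and its fitted log2 change of -0.59 (SE 0.40, adjusted p = 0.30 with limma) did not pass.

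Klk10, a secreted kallikrein of stratified epithelia, was the most abundant kallikrein in Mi2 by normalized reads per kilobase of exon. It had 122 and 126 normalized reads in the WT libraries and 1787 and 481 in Mi2. The WT libraries were close together while Mi2 replicate 1 stood 3.72-fold above replicate 2, and both Mi2 libraries were above WT. Its mean was 9.16-fold higher and its fitted log2 change 2.89 (SE 0.54, adjusted p = 0.010 with limma), with an adjusted p of 0.055 when WT replicate 1 was left out. Klk8, the trypsin-like protease also called neuropsin, had 112 and 77.7 normalized reads in the WT libraries and 626 and 198 in Mi2. The groups did not overlap, the mean was 4.34-fold higher and the fitted log2 change was 1.90 (SE 0.51, adjusted p = 0.032 with limma). This call was lost under 5 of 15 other settings, among them leaving out either WT library or Mi2 replicate 1, with an adjusted p of up to 0.16. All stretches of 50 bases in the annotated transcripts, called 50-base words here, were compared between genes, and 21.7% of those of Klk8 also occurred in the overlapping gene 2310002F09Rik. That transcript had 31.8 and 21.8 normalized reads in the WT libraries and 63.7 and 24.5 in Mi2 and was not called. The strand setting of the counting is not given in the sources used here, so reads from the stretch they share cannot be assigned.

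The other 3 kallikreins that rose were almost absent from WT keratinocytes. Klk13, a trypsin-like kallikrein of stratified epithelia, had 0 and 0.726 normalized reads in WT, the latter being 1 read, and 430 and 173 in Mi2. The ratio of pooled reads was 723, with a 95% exact counting interval from 129 to 28621, and the fitted log2 change was 7.70 (SE 0.59, adjusted p = 0.00084 with limma). Klk6, a trypsin-like protease best known from the nervous system, had 0 reads in both WT libraries and 134 and 45.0 normalized reads in Mi2. Taking 3 reads per WT library as the limit that a count of 0 allows, Klk6 was at least 34.7-fold higher (fitted log2 change 6.30, SE 0.72, adjusted p = 0.0023 with limma). Klk12, another trypsin-like kallikrein, had 1.98 and 3.63 normalized reads in WT, from 7 reads, and 73.0 and 24.5 in Mi2. Its ratio of pooled reads was 16.7 (95% exact counting interval 7.72 to 43.0) and its fitted log2 change 3.55 (SE 0.67, adjusted p = 0.011 with limma), with an adjusted p of 0.072 without WT replicate 1. These 3 genes passed only through their Mi2 level, so their Mi2 mean had to be the higher. The labels name no molecular identifiers, so these intervals and limits cover counting error alone.

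Klk11, a trypsin-like kallikrein, was the kallikrein with the highest WT level per kilobase. It had 318 and 383 normalized reads in the WT libraries and 260 and 285 in Mi2, so the groups did not overlap and Mi2 was the lower. The fitted log2 change of -0.36 (SE 0.21, adjusted p = 0.23 with limma) did not pass. Klk9, a chymotrypsin-like kallikrein, had 29.8 and 34.1 normalized reads in the WT libraries and 91.5 and 23.2 in Mi2. Its Mi2 libraries fell on either side of WT, and the fitted log2 change of 0.52 turned to -0.44 without Mi2 replicate 1 and reached 1.49, past the threshold, without Mi2 replicate 2. Klk14, which like Klk5 is a trypsin-like protease of the stratum corneum, had 1 read over the 4 libraries, and Klk4 and Klk15 had none. Of the 15 genes of the Klk1 and Klk1b group, the tissue kallikreins of glands, 13 had no read in any library, Klk1b24 had 6 reads and Klk1b4 had 1. Along chromosome 7 the other 12 kallikreins form 1 run that ends before the Klk1 group. The called genes were not contiguous within that run, since Klk11 lies between Klk12 and Klk10, Klk9 between Klk10 and Klk8, and Klk5 after Klk6. Summed over all 27 genes, kallikrein reads went from 788 and 706 in WT to 3996 and 1492 in Mi2, a 3.67-fold ratio of means, and from 666 and 580 to 2209 and 1011 without Klk10, a ratio of 2.58.

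**Figure D3:**
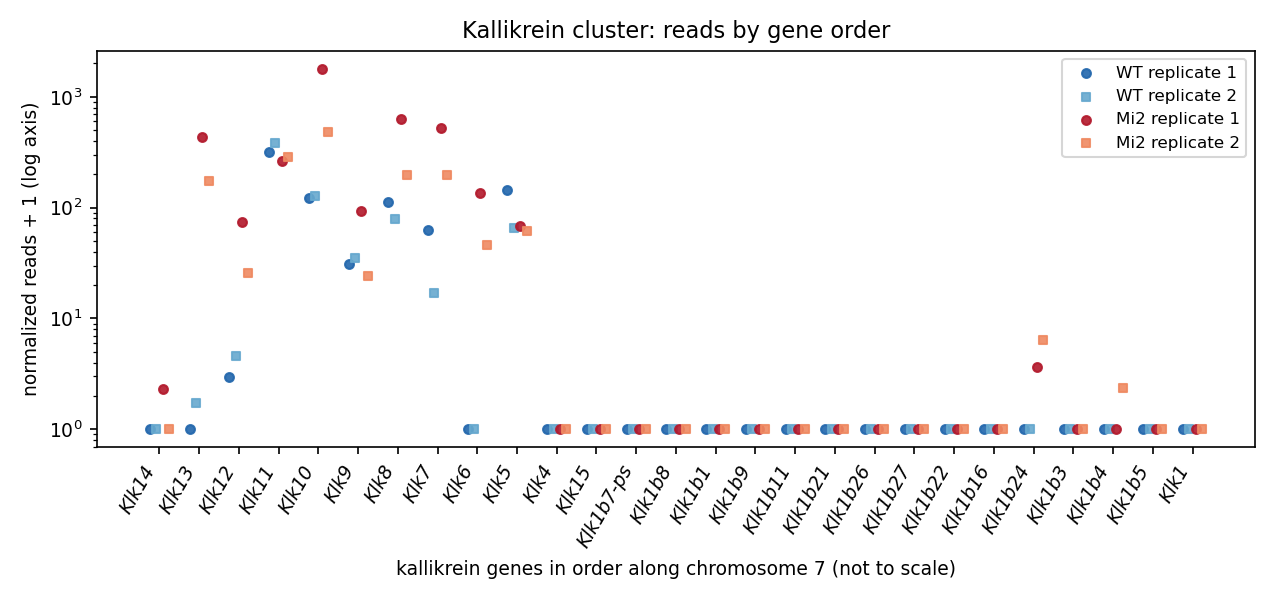
Normalized reads + 1 on a log axis for the 27 kallikrein genes in their order along chromosome 7, not to scale, in the 2 WT (blue) and 2 Mi2 (red and orange) libraries. The levels above 10 are all between Klk13 and Klk5, and the genes from Klk4 to Klk1 lie at 1, which stands for 0 reads, except for Klk1b24 in both Mi2 libraries and Klk1b4 in 1.

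The stretches just upstream of 3 genes are shown because of how their genes moved: Klk13 had the largest change among kallikreins, Klk10 became the most abundant kallikrein, and Serpinb7 was the gene that fell. They are the 250 bases before the start site in RefSeq on build GRCm38.p6, all on the plus strand, at chr7:43712317-43712566, chr7:43780804-43781053 and chr1:107422439-107422688. Capitals mark matches to the motifs searched.
Klk13: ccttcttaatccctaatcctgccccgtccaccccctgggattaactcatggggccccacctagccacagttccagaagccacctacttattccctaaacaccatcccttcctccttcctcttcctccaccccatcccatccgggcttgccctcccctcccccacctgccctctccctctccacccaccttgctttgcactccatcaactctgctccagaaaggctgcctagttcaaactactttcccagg
Klk10: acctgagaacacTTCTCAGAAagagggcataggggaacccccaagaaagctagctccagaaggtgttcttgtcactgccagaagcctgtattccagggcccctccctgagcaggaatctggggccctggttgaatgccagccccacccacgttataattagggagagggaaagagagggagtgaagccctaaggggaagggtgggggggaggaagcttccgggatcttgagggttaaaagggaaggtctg
Serpinb7: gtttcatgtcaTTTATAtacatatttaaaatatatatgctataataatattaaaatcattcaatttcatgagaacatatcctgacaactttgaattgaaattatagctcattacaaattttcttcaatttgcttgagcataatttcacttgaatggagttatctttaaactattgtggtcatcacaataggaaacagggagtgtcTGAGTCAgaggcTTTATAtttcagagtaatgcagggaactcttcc
The search covered both strands for AP-1 (TGANTCA), STAT (TTCNNNGAA), the grainyhead-like core AACNNGTT and the TATA box (TATAAA), and no matches in these 3 stretches overlapped. Klk13 had none. Klk10 had a STAT match starting 238 bases upstream, and Serpinb7 had an AP-1 match 45 bases upstream between TATA matches at 239 and 33 bases. Both TATA matches read TTTATA here, so they lie on the strand opposite to the gene. The RefSeq table held promoters for 20 of the 22 tested genes, all but Serpinb1a and Spink5, 25 in all counting second starts. AP-1 letters occurred in 5 of these 25, all of clade B serpins (Serpinb2 with both of its overlapping windows, Serpinb5, Serpinb7 and Serpinb8), against 6.75% of all 32851 RefSeq promoters of this length. STAT letters occurred in 3 of 25 (7.02% of all), TATA letters in 4 of 25 (12.4%) and grainyhead-like letters in 0 of 25 (3.64%). None of the 4 motifs was found in the windows of Klk6, Klk7, Klk8, Klk12, Klk13, Stfa1, Stfa2, Stfa3, Serpinb6c or Wfdc2, all called higher. The windows of Klk5, Klk9 and Klk11, which were not called, had none either.

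Spink5 is the inhibitor of epidermal kallikreins, and it was the only one of 12 Spink genes with more than 6 reads. It had 325 and 359 normalized reads in the WT libraries and 511 and 1034 in Mi2. The groups did not overlap, and here Mi2 replicate 2 was the higher library, unlike in the kallikreins that rose. The mean was 2.26-fold higher and the fitted log2 change 1.09 (SE 0.33, adjusted p = 0.046 with limma). This call was lost under 8 of 15 other settings, among them 3 other scalings of the libraries and leaving out either WT library or Mi2 replicate 2. The fitted change stayed between 0.58 and 1.59, with an adjusted p of up to 0.22. Of the other Spink genes, Spink2 had 6 reads over the 4 libraries and 10 had none.

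Wfdc2, a WAP-domain protein also known as HE4, was the only tested gene of its family. It had 0 and 0.726 normalized reads in WT, from 1 read, and 123 and 35.4 in Mi2. It passed only through its Mi2 level, with a ratio of pooled reads of 191 (95% exact counting interval 33.6 to 7598) and a fitted log2 change of 5.68 (SE 0.77, adjusted p = 0.0039 with limma). Wfdc5 had 9.92 and 6.53 normalized reads in the WT libraries and 7.96 and 1.36 in Mi2, below the level tested. Wfdc3 appeared as 2 rows with the same values, and 11 of the 16 Wfdc rows had no read.

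Stefins had the largest family rise. Stfa1, Stfa2 and Stfa3 were all called higher, against 15.1% of all genes tested. Of these, Stfa1 and Stfa2 passed the filter only through their Mi2 level. Stfa2l1 was just under the level tested, with a mean of 9.96. The coding sequences of Stfa1, Stfa2 and Stfa3 are shown because stefin genes are alike enough to share reads. They are taken from GENCODE vM21 transcripts on GRCm38, up to the first 300 bases, and capitals in Stfa1 and Stfa2 mark bases unlike Stfa3.
Stfa3: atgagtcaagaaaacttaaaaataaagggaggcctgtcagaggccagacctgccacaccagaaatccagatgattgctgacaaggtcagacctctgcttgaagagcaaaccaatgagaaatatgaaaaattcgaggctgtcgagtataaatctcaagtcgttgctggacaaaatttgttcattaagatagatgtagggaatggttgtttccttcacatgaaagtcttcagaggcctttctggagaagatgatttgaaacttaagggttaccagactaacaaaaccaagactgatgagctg
Stfa1: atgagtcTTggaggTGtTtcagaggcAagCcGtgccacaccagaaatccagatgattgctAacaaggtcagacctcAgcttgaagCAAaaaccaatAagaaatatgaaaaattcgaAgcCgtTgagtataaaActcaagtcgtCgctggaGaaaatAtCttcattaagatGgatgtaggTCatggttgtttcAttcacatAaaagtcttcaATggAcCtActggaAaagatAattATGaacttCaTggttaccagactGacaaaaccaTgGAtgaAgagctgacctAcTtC
Stfa2: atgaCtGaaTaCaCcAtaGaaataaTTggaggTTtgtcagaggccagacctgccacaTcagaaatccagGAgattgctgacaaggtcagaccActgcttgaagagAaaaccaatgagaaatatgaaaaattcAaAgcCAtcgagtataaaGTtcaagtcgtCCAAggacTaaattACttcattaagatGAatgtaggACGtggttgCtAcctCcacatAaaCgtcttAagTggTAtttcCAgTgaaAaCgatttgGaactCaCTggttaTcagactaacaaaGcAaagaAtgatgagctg
Stfa1 differed from Stfa3 at 47 bases and lacked 18, and Stfa2 differed from it at 59. Over the whole coding alignment, with missing bases counted as unlike, Stfa3 was 79.0% identical to Stfa1 and 80.9% identical to Stfa2. The 18 bases that Stfa1 lacks lower the first of these values. Stfa3 shared no 50-base word with any other gene. Stfa2 was 96.4% identical to Stfa2l1, and Stfa1 was 97.9% identical to BC100530, a neighbouring stefin gene outside the naming rule. The longest run that Stfa1 and BC100530 share had 128 bases and is shown because reads from it fit both genes.
shared run: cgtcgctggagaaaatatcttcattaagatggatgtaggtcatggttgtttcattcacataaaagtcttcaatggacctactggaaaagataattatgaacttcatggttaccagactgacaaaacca
Of all 50-base words, 22.5% in Stfa1, 15.9% in Stfa2 and 24.6% in Stfa2l1 occurred in another gene, so the split of reads among these 3 genes and their neighbours is uncertain.

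Stfa3, with no shared word, had 14.9 and 16.0 normalized reads in the WT libraries and 2789 and 2471 in Mi2. Replicates were close together within both groups, and the groups stood 170-fold apart, with a fitted log2 change of 7.32 (SE 0.21, adjusted p = 2.6e-05 with limma). No other called gene of the 22 had so small an SE. Stfa1 had 0 and 2.90 normalized reads in WT, from 4 reads, and 1767 and 826 in Mi2. Its ratio of pooled reads was 777 (95% exact counting interval 303 to 2854) and its fitted log2 change 9.26 (SE 0.67, adjusted p = 0.00075 with limma). Stfa2 had 0 and 0.726 normalized reads in WT, from 1 read, and 492 and 85.8 in Mi2. Its ratio was 696 (95% exact counting interval 124 to 27545), with a fitted log2 change of 7.30 (SE 0.83, adjusted p = 0.0023 with limma). Stfa2l1 had no WT read and 38.5 and 1.36 normalized reads in Mi2. Stfa1 and Stfa2 passed only through their Mi2 level, so their Mi2 mean had to be the higher, while Stfa3 had a WT mean above 10.

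The 4 Stfa genes together had 14.9 and 19.6 normalized reads in the WT libraries and 5087 and 3384 in Mi2, a 246-fold ratio of means, which still depends on how reads were split between Stfa1 and BC100530. A sum that takes in 5 neighbouring stefin-like genes of the cluster on chromosome 16, BC100530 among them, does not depend on the split among those 9 genes, and it was 26.8 and 33.4 in WT and 10767 and 5998 in Mi2, a ratio of 279. Among these neighbours BC100530 had 4.96 and 5.81 normalized reads in the WT libraries and 4024 and 1881 in Mi2, and it was called higher with a fitted log2 change of 8.76 (SE 0.37). Gm1975 and Gm15845 were called higher too, with fitted log2 changes of 8.44 and 8.19. Gm1975 had 0 WT reads and, against 3 reads per WT library, was at least 144-fold higher. Gm15845 had 4 WT reads and a ratio of pooled reads of 479 (exact counting interval 186 to 1759). BC100530, Gm1975 and Gm15845 passed only through their Mi2 level, so their Mi2 mean had to be the higher. Csta, with 5.95 and 5.81 in WT and 23.9 and 6.81 in Mi2, was not called. Stefins of this cluster are also known from neutrophils. Of 16 neutrophil and monocyte markers, Elane, Mpo, Camp, Ltf and Ly6g had no read in any library, 3 were tested and none was called. Together the 16 summed to 42.7 and 298 in WT, of which Lyz2 made up 182 in WT replicate 2, and to 43.8 and 40.9 in Mi2. Itgam, with 22.6 and 28.6, was the largest of them in Mi2, and Cxcr2 had 0 and 5.08 normalized reads in WT against 7.96 and 4.09 in Mi2. The part of such cells in the stefin reads was not tested.

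**Figure D4:**
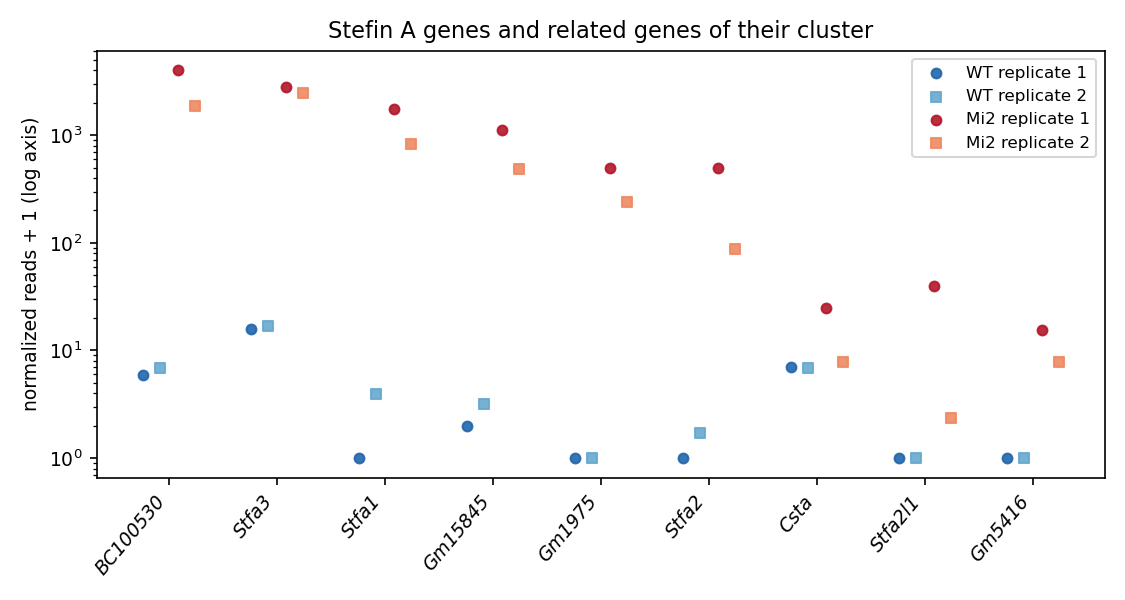
Normalized reads + 1 on a log axis for the 4 Stfa genes and 5 stefin-like neighbours in the 2 WT (blue) and 2 Mi2 (red and orange) libraries. The Mi2 libraries lie above the WT libraries for all 9 genes, narrowly so for Csta and Stfa2l1. Stfa2l1 had 1 read in Mi2 replicate 2. Of all genes tested, 34.9% lay higher in Mi2 without overlap. All of the 9 but Stfa3 had a WT mean under 10.

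Clade B serpins were the most abundant of the 5 families in WT keratinocytes, and their summed level had the smallest ratio of Mi2 to WT. Of 27 genes 8 were tested, of which Serpinb6c and Serpinb1a were called higher, Serpinb7 was called lower and 5 were not called. Of the 7 with a WT mean of at least 10, all but Serpinb6c, 1 was called higher and 1 lower. These counts are close to the shares over all genes with such a WT mean, 12.5% higher and 13.8% lower. Serpinb5, known as maspin and not an inhibitor of proteases in the classical sense, had 2347 and 2069 normalized reads in the WT libraries and 3440 and 2794 in Mi2. The groups did not overlap, yet the fitted log2 change of 0.49 (SE 0.21, adjusted p = 0.12 with limma) did not pass. Serpinb2, the plasminogen activator inhibitor PAI-2, had 1709 and 1437 normalized reads in the WT libraries and 2080 and 1756 in Mi2, with a fitted log2 change of 0.29 (SE 0.21, adjusted p = 0.33 with limma). Its Mi2 libraries were both above WT by a small margin. Of the 50-base words of Serpinb2, 10.4% also occurred in Serpinb10. Serpinb6a, an inhibitor of cathepsin G, had 772 and 545 normalized reads in the WT libraries and 1145 and 674 in Mi2. Here the groups overlapped, and the fitted log2 change was 0.44 (SE 0.30, adjusted p = 0.31 with limma). Serpinb6a has 25.1% of its 50-base words in common with other genes, the largest number of them with Nqo2.

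Serpinb7, also called megsin, was the only gene of the 86 called lower. It had 622 and 247 normalized reads in the WT libraries and 67.7 and 161 in Mi2. The groups did not overlap, although the WT libraries differed 2.52-fold from each other. The Mi2 mean was 0.263 of the WT mean and the fitted log2 change -1.90 (SE 0.52, adjusted p = 0.036 with limma). It was lost under 4 of 15 other settings, with changes of -1.23 without WT replicate 1 and -1.28 without Mi2 replicate 1 and an adjusted p of up to 0.23. Serpinb8, an inhibitor of furin, had 525 and 529 normalized reads in the WT libraries and 316 and 486 in Mi2. Both Mi2 libraries were below WT, but the fitted log2 change of -0.43 (SE 0.25, adjusted p = 0.23 with limma) passed only when Mi2 replicate 2 was left out, at -0.74.

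Serpinb6c, a close relative of Serpinb6a, had 0.992 and 0.726 normalized reads in WT, from 2 reads, and 186 and 64.0 in Mi2. The ratio of pooled reads was 150 (95% exact counting interval 40.9 to 1247) and the fitted log2 change 5.89 (SE 0.63, adjusted p = 0.0018 with limma). Of its 50-base words 9.92% occurred in another gene. With missing bases counted as unlike, its coding sequence was 81.8% identical to that of Serpinb6a and 86.5% to that of Serpinb6b. The coding lengths were 1137 bases in Serpinb6c, 1197 in Serpinb6a and 1131 in Serpinb6b, so gaps lower the first value more. Serpinb6b had 8.93 and 7.99 normalized reads in the WT libraries and 9.29 and 12.3 in Mi2. Serpinb1a, an inhibitor of neutrophil elastase and cathepsin G, had 31.8 and 22.5 normalized reads in the WT libraries and 99.5 and 57.2 in Mi2. The groups did not overlap, and the mean was 2.89-fold higher (fitted log2 change 1.46, SE 0.40, adjusted p = 0.034 with limma). This call was lost under 5 of 15 other settings, including leaving out either WT library or Mi2 replicate 1, with an adjusted p of up to 0.21.

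Serpinb3b belongs to the squamous cell carcinoma antigen group, with 4 closely related mouse genes. Their coding sequences were between 86.1% (Serpinb3c and Serpinb3d) and 93.1% (Serpinb3b and Serpinb3c) identical in pairs, and 14.7% of the 50-base words of Serpinb3b occurred in another gene, so the split of those reads is uncertain. Serpinb3b had 30.8 and 21.1 normalized reads in the WT libraries and 5.31 and 31.3 in Mi2, which overlap. Its fitted log2 change was -0.89 (SE 0.77, adjusted p = 0.41 with limma), which turned to 0.29 without Mi2 replicate 1 and passed the threshold at -2.07 without Mi2 replicate 2. Serpinb3a had no WT read and 1.33 and 15.0 normalized reads in Mi2, so Mi2 replicate 2 was the higher library for both genes. The 4 genes together had 32.7 and 22.5 normalized reads in the WT libraries and 9.29 and 46.3 in Mi2, which overlap as well. Below the level tested, Serpinb9, an inhibitor of granzyme B, had 14.9 and 14.5 normalized reads in the WT libraries and 1.33 and 5.45 in Mi2. Serpinb11 and Serpinb12 had 22 and 20 reads in all.

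The families changed rank in Mi2 keratinocytes. Serpins took 84.2% and 81.8% of the reads of all 86 genes in WT and 43.1% and 50.5% in Mi2. Stefins went from 0.206% and 0.326% to 29.8% and 28.2%, and kallikreins from 10.9% and 11.7% to 23.4% and 12.4%. In sums, serpins had 6071 and 4915 normalized reads in the WT libraries and 7368 and 6059 in Mi2, a ratio of means of 1.22, and the groups overlapped. All 86 genes together had 7211 and 6012 in WT and 17094 and 12007 in Mi2, a ratio of 2.20. The same ratio over all 36442 genes was 1.33, above that of the serpins and below those of the other families. Per kilobase of annotated exon, the WT order was led by Serpinb5 with 803 normalized reads per kilobase, Serpinb2 with 670, Klk11 with 239 and Serpinb7 with 222. The libraries of the first 3 did not overlap with each other, and those of Klk11 and Serpinb7 did. In Mi2 the order was led by Stfa3 with 6384 normalized reads per kilobase, followed by Stfa1 with 1826, Serpinb5 with 1134 and Klk10 with 826. Stfa3 stood apart from all the others, while Stfa1 overlapped with Serpinb5 and Serpinb5 with Klk10.

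The Mi2 libraries differed from each other in a shared direction. Of the 13 genes called higher, 12 had more normalized reads in Mi2 replicate 1 than in replicate 2, at a median ratio of 2.90. Among all genes called higher this held for 1676 of 2185, or 76.7%, at a median ratio of 1.23, and among all genes tested for 51.6%, at a median ratio of 1.02. The ratio ran from 1.13 for Stfa3 to 5.74 for Stfa2, and Spink5 was the exception at 0.494. The labels name nothing that sets Mi2 replicate 1 apart. It also had the lower Chd4 level and the higher mitochondrial share, and the part of these in the difference was not tested.

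**Figure D5:**
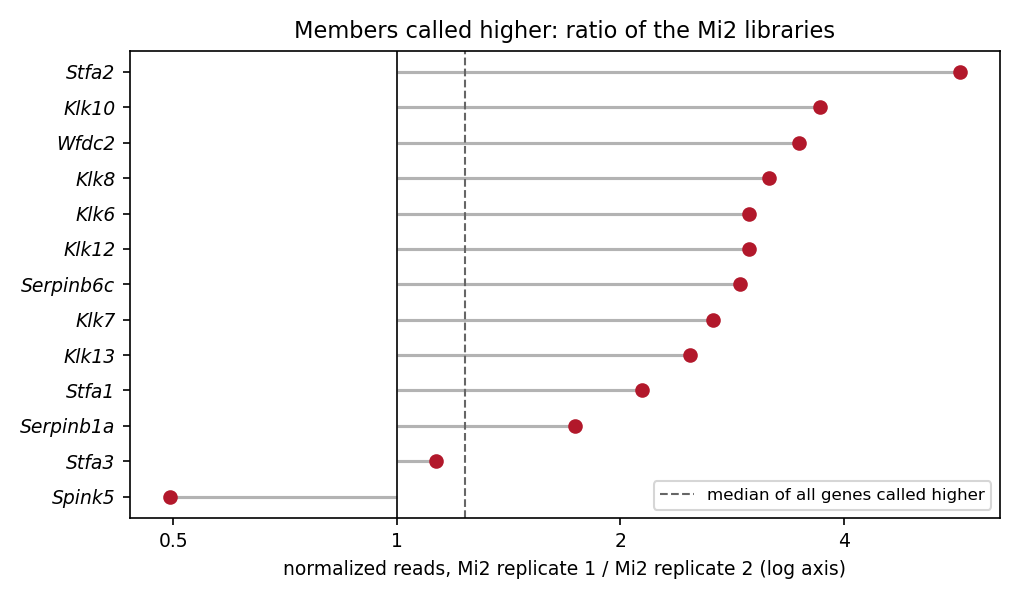
Ratio of normalized reads in Mi2 replicate 1 to Mi2 replicate 2 on a log axis for the 13 genes called higher, with a dashed line at 1.23, the median over all genes called higher. Points right of 1 are higher in replicate 1, and Spink5 is the only point left of 1.

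Other genes of the same protease network were counted from 4 lists, whose counts stand against 15.1% higher and 13.1% lower over all genes tested. Against a median fitted log2 change of -0.03 over all genes tested, the list medians were -0.48 for serine proteases, 0.61 for cysteine, aspartic and metalloproteases, 0.42 for other inhibitors and 0.36 for substrates and receptors. Among serine proteases and activators outside the kallikreins, 4 of 14 tested were called higher and 3 lower. Of the 4, Hpn passed the filter only through its Mi2 level. Hpn, encoding the membrane serine protease hepsin, had 0 and 0.726 normalized reads in the WT libraries and 37.2 and 38.1 in Mi2, and Pcsk6, a proprotein convertase, had 99.2 and 76.2 in WT and 277 and 297 in Mi2. Prss36 fell by 2.46 on the log2 scale, from 23.8 and 29.8 normalized reads to 3.98 and 4.09, and Htra1, the most abundant, was not called. Among cysteine, aspartic and metalloproteases of skin, 12 of 27 tested were called higher and 1 lower. Capn2, a calpain, had 106 and 107 normalized reads in the WT libraries and 1706 and 932 in Mi2. Asprv1, the aspartic protease that processes profilaggrin, had 61.5 and 45.7 in WT and 931 and 289 in Mi2. The cysteine cathepsin genes of this list did not move together: Ctsb, Ctsc and Ctsz were called higher with fitted log2 changes of 0.90, 1.59 and 3.02, Ctsf fell by 1.33 on the log2 scale, and Ctsh, Ctsl, Ctso and Ctss were not called.

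Among protease inhibitors outside the 5 families, 6 of 19 tested were called higher and 2 lower, against 15.1% and 13.1% of all genes. With a WT mean of at least 10 the counts were 3 higher and 2 lower of 14. Pi15 had 0 and 0.726 normalized reads in the WT libraries and 1661 and 702 in Mi2, the largest change of these lists. Serpina12, also called vaspin and known as an inhibitor of kallikrein 7, had 36.7 and 9.44 normalized reads in the WT libraries and 0 in both Mi2 libraries. Against 3 reads per Mi2 library it was at least 5.72-fold lower in Mi2 (fitted log2 change -4.31, adjusted p = 0.016 with limma). Anxa2, the most abundant gene of this list, was not called.

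Among substrates and receptors of such proteases, 5 of 20 tested were called higher and 7 lower, against 15.1% and 13.1% of all genes. With a WT mean of at least 10 the counts were 3 higher and 7 lower of 17. Adhesion genes did not move in 1 direction. Dsc1 rose from 103 and 82.0 normalized reads to 1092 and 1606 and Dsc2 from 8.93 and 9.44 to 536 and 255. Dsc2 had a WT mean under 10 and passed only through its Mi2 level. Dsg1a, Dsg1b and Dsg1c, close desmoglein copies whose split of reads is uncertain, were all called lower. Dsg3, with a fitted log2 change of 0.71, and Cdsn, at 0.93, were not called. Tslp, a cytokine induced by protease signalling in skin, had 15.9 and 16.0 normalized reads in the WT libraries and 2780 and 3132 in Mi2. F2rl1, the receptor PAR-2 that kallikreins are known to cleave, had 623 and 877 in WT and 788 and 1260 in Mi2, which overlap, and was not called. The thrombin receptor gene F2r fell by 1.47 on the log2 scale, and Cdh1, the most abundant gene of the list, was not called.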

How the data were processed

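RNA-seq of sorted keratinocytes was deposited as 1 table of 36442 genes. The signal that the authors deposited is a normalized read count per gene and library. The submitters' processing notes list bcl2fastq 1.8.3, STAR, DESeq2 and the builds mm9 and mm10, with no role for each build. For the counting program, annotation and strand setting, the sources used here give nothing. Every value above 0 was a whole multiple of the value of 1 read, within 0.05 reads, in 100% of values of each library, so reads and totals could be recovered. Libraries held 5682391 to 8913804 reads, where 1 read equals 0.726 to 1.36 normalized reads.

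The members and the gene lists were chosen with earlier results of these data known. Groups came from sample titles. In R 4.3.3, log2(value + 1) of genes with a mean of at least 10 was fitted with limma 3.58.1 and its intensity trend, without covariates, two-sided, with Benjamini-Hochberg adjustment over all 14461 genes and a threshold of 0.05. The fit was run on simulated reads drawn with the same variability setting for every gene, so that run does not show how it performs on these libraries. On recovered reads edgeR 4.0.16 called 4106 genes and DESeq2 1.42.0 called 3731, against 4085 with limma. Folds against 0 reads used 3 reads per library, and folds against 1 to 10 reads are pooled ratios with exact 95% counting intervals. Lists of other proteases, inhibitors, substrates and cell markers were matched by symbol. All tested members are named. Of each list the text names up to 3 called genes with the largest change and the most abundant gene, except 1 gene that is not reported here, and it adds cathepsins, desmosomal genes, F2r, F2rl1 and some cell markers, as well as genes that share or border member sequences, chosen after their values were seen. Of 86 gene identifiers 85 were found in GENCODE vM21, used for transcripts and exon lengths, and 67 of 85 symbols in the RefSeq promoter table. Other settings tried were 3 scalings, 2 pseudocounts, 2 filters, limma without trend, edgeR, DESeq2, each library left out and a replicate block.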

Additional observations from a re-analysis of the deposited data

How the results depend on the processing

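Of the 14 called members, 7 (Klk6, Klk13, Serpinb6c, Stfa1, Stfa2, Stfa3 and Wfdc2) kept their call under every one of the 15 other settings, 7 lost it at least once and none changed direction. Of the 7 that kept it, 6 had a WT mean under 10 and passed only through their Mi2 level; of the 7 called members with a WT mean of at least 10, Stfa3 alone kept its call throughout. Members called higher numbered 13, and between 8 and 13 when 1 library was left out, with the lowest count without WT replicate 1. The 1 member called lower became 0 with no filter and 0 without the trend, and 0 to 3 with 1 library left out. Of the 8 members not called, Klk9 turned to -0.44 and Serpinb3b to 0.29 without Mi2 replicate 1, and they passed at 1.49 and -2.07 without Mi2 replicate 2. Over all genes the count of calls was 4085, and 851 without WT replicate 1, 1078 without WT replicate 2, 2432 without Mi2 replicate 1 and 5620 without Mi2 replicate 2. Leaving out a library leaves its group with 1, which is then assumed to vary like the other group.

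Serine proteases called higher fell to 2 without the trend and ranged from 2 to 4 with 1 library left out, and those called lower from 0 to 5. Cysteine, aspartic and metalloproteases ranged from 7 to 13 higher and from 0 to 3 lower, with 0 lower without the trend and 2 lower with the replicate block. Other inhibitors ranged from 2 to 9 higher and from 0 to 4 lower, with 1 lower at a mean of at least 30. Substrates and receptors ranged from 3 to 7 higher and from 0 to 7 lower. The cause of these moves was not tested.

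The groups share replicate numbers, but the labels do not say that a number marks a shared animal or batch, and deviations of same-numbered libraries correlated at 0.12 over genes. With the replicate number as a block, 13 members were called higher and 1 lower, and 5170 genes were called in all. A read count of 0 in WT limits folds to lower bounds.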
